A study of Mus musculus with 24 samples.

Results

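The serum- and glucocorticoid-regulated kinases (*Sgk1*, *Sgk2*, *Sgk3*), the 4 *Tsc22d* genes and the ubiquitin ligase *Nedd4l* were followed in the mouse hippocampus by taking every non-control probe of the array whose transcript identifier belongs to one of these 8 genes. This gave 20 of 56605 probes: 1 for *Sgk1*, 1 for *Sgk2*, 3 for *Sgk3*, 3 each for *Tsc22d1*, *Tsc22d2* and *Tsc22d3*, 4 for *Tsc22d4* and 2 for *Nedd4l*. Hippocampal RNA came from 48 male Swiss-Webster mice, which were moved to single cages at about 12 weeks of age and kept there for some weeks before the treatment; the control animals were brothers of the treated ones. The control animals drank water with the vehicle, 0.45% hydroxypropyl-β-cyclodextrin, through the 12-hour dark phase, and the corticosterone-treated animals drank the same vehicle with corticosterone at 100 µg/ml, so both arms received cyclodextrin and the amount of hormone taken up depended on drinking. Animals were killed during the first, the fifth or the ninth hour of the following light phase, the resting period of the mouse, with 8 animals per treatment and hour. Each of the 24 two-colour arrays paired 1 control animal (Cy3) with 1 treated animal of the same hour (Cy5), and the dyes were never exchanged. Corticosterone and dye therefore cannot be told apart in a difference between the treatments, whereas a constant dye difference of a probe cancels in every comparison between hours.

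SGK kinases are relatives of AKT that are switched on through phosphoinositide 3-kinase, PDK1 and mTOR complex 2 and that phosphorylate, among others, the ubiquitin ligase NEDD4L, which then removes fewer ion channels and transporters from the membrane. TSC22 domain proteins carry a leucine zipper, and the short form of *Tsc22d3*, known as GILZ, is a glucocorticoid-induced protein that binds NF-kappaB, AP-1 and RAS pathway proteins. *Sgk1* and *Tsc22d3* are known targets of the glucocorticoid receptor in many tissues including brain.

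The arrays had between 60.8% and 73.5% of their probes well above background in a channel and no saturated spot. The arrays lay on 3 slides, each of which held arrays of all 3 hours, in unequal numbers. Slide 1 held 4 arrays of the ninth hour and 2 of each other hour. Slides 2 and 3 each held 2 of the ninth hour and 3 of each other hour. All 4 hippocampal markers examined (*Prox1*, *Zbtb20*, *Neurod6*, *Fibcd1*) were measured, none differed between treatments at any hour at an adjusted p under 0.05, and none of 7 choroid plexus markers did. Of the astrocyte, endothelial, microglial and neuronal markers (6 of each), 2, 5, 3 and 1 differed in the first hour, in both directions for astrocytes and endothelium, where 17.5% of all probes did; the neuronal count lies near that share and the endothelial count furthest above it. In the same order 3, 2, 2 and 2 differed in the fifth hour and 3, 2, 1 and 1 in the ninth, against 18.1% and 13.9% of all probes. Their summed intensities in control and treated animals of the first hour ranged from 29257 to 32871 and 30967 to 34360.4 for astrocytes, 15679.7 to 19003 and 14321 to 16409 for endothelium, 14471 to 17141 and 12529.9 to 16707 for microglia, and 174236 to 195739.5 and 173629 to 193114 for neurons, and their part in the results was not tested. In whole hippocampal tissue, fewer cells of a type and less RNA per cell cannot be told apart.

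Corticosterone-treated animals were compared with control animals at each hour with limma's separate channel test, with p-values adjusted over all 56605 probes by the Benjamini-Hochberg method, and a probe with an adjusted p under 0.05 is called changed. During the first hour 9 of the 20 probes, from 7 of the 8 genes, were changed, against 17.5% of all probes. Of these 8 were higher in treated animals and 1 lower, against 8.79% and 8.74% of all probes. During the fifth hour 7 were changed against 18.1% of all probes, 6 higher against 8.64% and 1 lower against 9.51%, and without slide 3, where the share of all probes was 7.27%, 3 of the 20 were. During the ninth hour 4 were changed against 13.9%, 1 higher against 6.97% and 3 lower against 6.93%. The median log2 difference of the 20 probes went from 0.16 through 0.090 to -0.028, beside medians of -0.0012, 0.00096 and 0.00070 over all probes. Only A_55_P1957228 of *Sgk3* and the *Sgk2* probe were changed at all 3 hours, and the 2 moved in opposite directions. No probe was left out for low intensity, although 3 of the 20 had a mean under 50 units, and 8 were changed in none of the 12 comparisons made between treatments or hours. The shares of all probes changed at all 3 hours, or in none of the 12 comparisons, were not counted. Nor was the share of all genes with a changed probe, so these counts do not set the 8 genes apart from the rest of the array. Each log2 difference given is corticosterone minus control unless another contrast is named. Its standard error (SE) rests on 8 arrays per hour (7 for A_55_P2030756 during the fifth hour) and on a spread of the probe estimated over all hours in 1 fit. It does not measure the spread among the arrays of that hour alone.

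**Figure D1:**
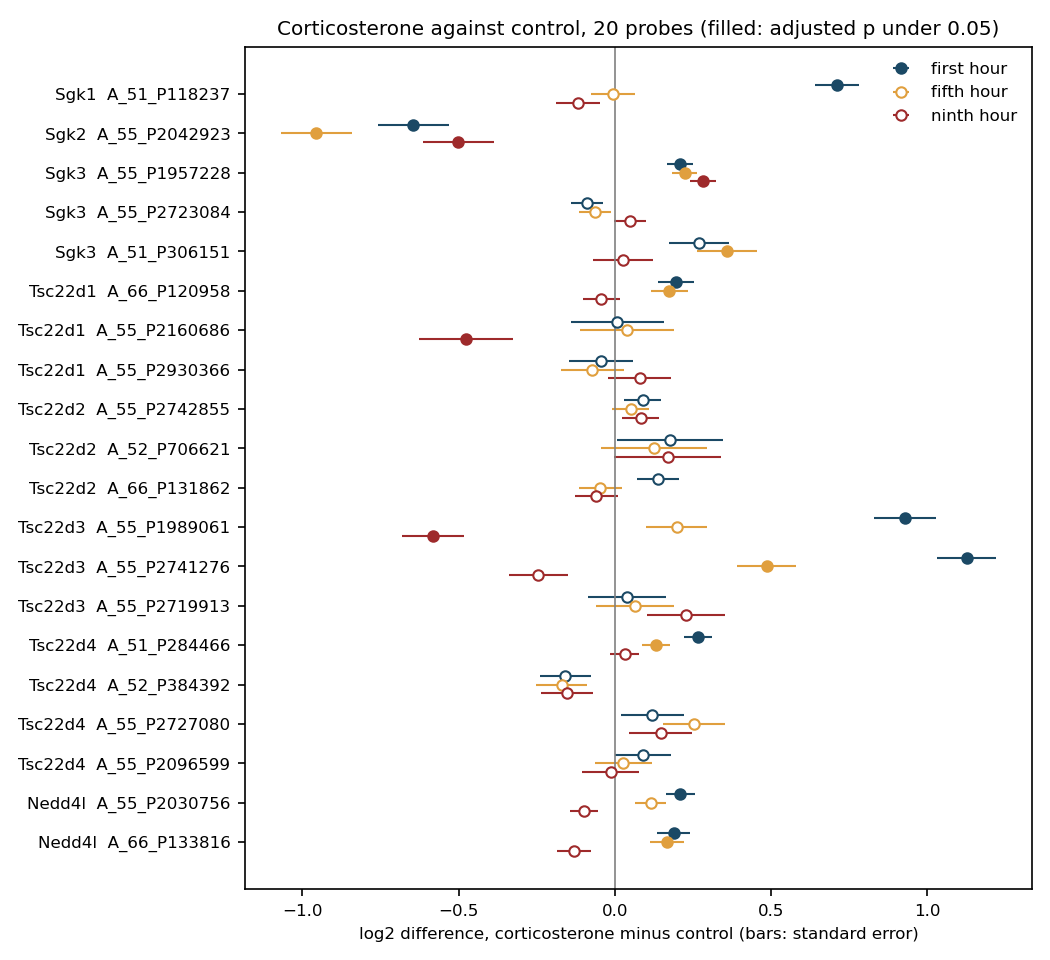
Log2 difference between corticosterone-treated and control animals for the 20 probes at each hour, with standard errors; filled points have an adjusted p under 0.05, n = 8 arrays per hour (7 for A_55_P2030756 during the fifth hour). The *Sgk1* probe and A_55_P1989061 and A_55_P2741276 of *Tsc22d3* lie at 0.71, 0.93 and 1.13 during the first hour and below 0 during the ninth, while *Sgk2* lies below 0 and A_55_P1957228 of *Sgk3* above 0 at all 3 hours; A_55_P2719913 of *Tsc22d3* was not well above background on any array.

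*Sgk1*, the member of the kinase family with the best known transcriptional response to steroids, was raised during the first hour, and its difference from control did not pass the test afterwards. The normalized intensity of its probe (linear scanner units), A_51_P118237, ranged from 4557 to 5305 (median 4855) in control and from 6311 to 11128 (median 7947) in corticosterone-treated animals of the first hour, and the 2 groups did not overlap. All 8 arrays showed the higher signal in the treated animal, and the arithmetic group means were 4899 ± 218 and 8115 ± 1412 (SD, n = 8). The fitted log2 difference was 0.71 (SE 0.071, adjusted p = 5.70e-11), a 1.64-fold difference between geometric means. During the fifth hour the ranges were 3529.7 to 5238 (median 4679.8) in control and 3426 to 5263 (median 4537) in treated animals, and the groups overlapped over nearly their whole range. The log2 difference then was -0.0048 with a 95% interval of -0.14 to 0.13. During the ninth hour control animals ranged from 4353 to 5785 (median 4913) and treated animals from 4212 to 4719 (median 4478), with a lower signal in the treated animal on 6 of 8 arrays and a log2 difference of -0.12 (SE 0.071, adjusted p = 0.247), which did not pass the test.

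The corticosterone effect on *Sgk1* changed between hours, and this comparison carries no constant dye difference. It fell by 0.72 on the log2 scale between the first and the fifth hour (SE 0.10, adjusted p = 1.37e-05) and by 0.83 from the first to the ninth (SE 0.10, adjusted p = 7.10e-08). Between the fifth and ninth hours it differed by -0.11 (SE 0.10, adjusted p = 1.00). Within slides 1, 2 and 3 the first-hour difference was 0.81, 0.51 and 0.85 and the change between the first and ninth hours -0.89, -0.62 and -1.05, and leaving out any 1 slide kept these 3 calls.

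**Figure D2:**
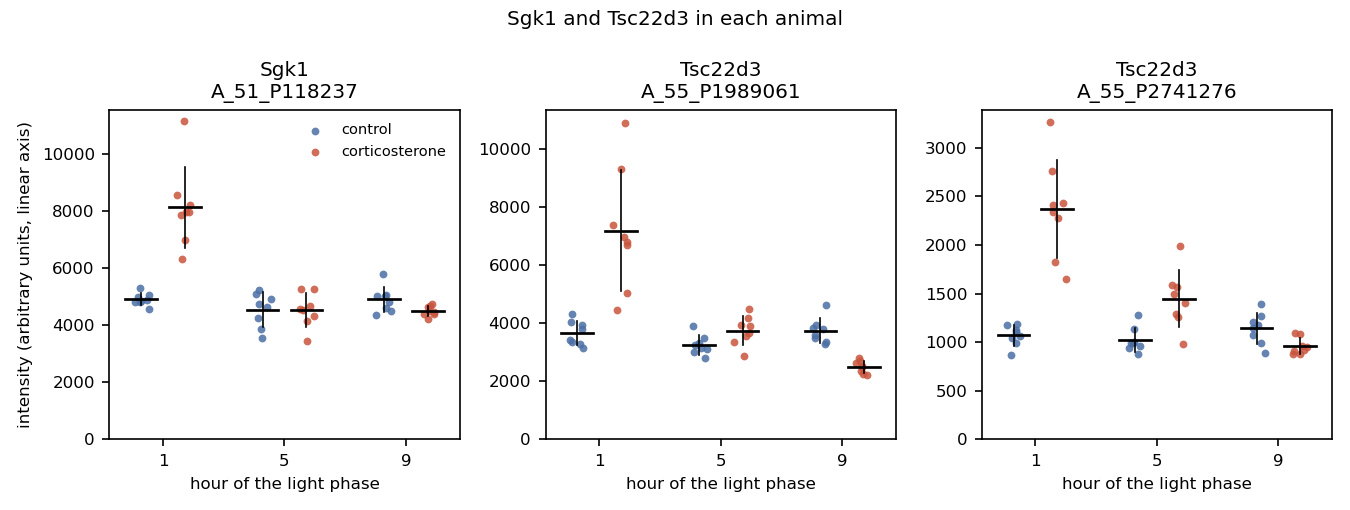
Normalized intensity of the *Sgk1* probe and of the 2 *Tsc22d3* probes well above background in each animal, by hour of the light phase; horizontal bars are group means, vertical bars 1 SD, n = 8 animals per group. Treated animals lie above all control animals in the 3 panels during the first hour, and for A_55_P1989061 below all control animals during the ninth.

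Start-site windows from RefSeq (build GRCm38.p6; 250 bases before to 50 after each start) matched 3 of the 8 genes, *Sgk1* (6 starts), *Tsc22d1* (5) and *Tsc22d3* (3). They were searched on both strands for the glucocorticoid receptor's binding palindrome, made of the 6-base arms AGAACA and TGTTCT with any 3 bases between them, and for the arm AGAACA alone, which every full palindrome also holds. The palindrome was found in 1 *Sgk1* window and in no window of the other 2 genes, and 0.00914% of 32817 windows in the genome hold it. The arm was found in 3 of the 6 *Sgk1* windows, 1 of the 5 *Tsc22d1* windows and 1 of the 3 *Tsc22d3* windows, against 18.97% of all windows. The 250 bases before the start are shown for the *Sgk1* window with the palindrome (chr10:21993640-21993889, plus strand, first base of the match at -189 from the start) and for the *Tsc22d3* window with the arm (chrX:140600523-140600772, minus strand, at -185), because these 2 of the 3 genes with windows had the larger differences during the first hour; capitals mark the palindrome in *Sgk1* and the arm, read from the other strand, in *Tsc22d3*.
Sgk1: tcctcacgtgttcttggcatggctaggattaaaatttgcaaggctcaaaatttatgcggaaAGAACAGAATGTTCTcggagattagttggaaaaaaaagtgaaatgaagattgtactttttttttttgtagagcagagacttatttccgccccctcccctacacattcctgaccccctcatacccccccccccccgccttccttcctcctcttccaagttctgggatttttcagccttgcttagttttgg
Tsc22d3: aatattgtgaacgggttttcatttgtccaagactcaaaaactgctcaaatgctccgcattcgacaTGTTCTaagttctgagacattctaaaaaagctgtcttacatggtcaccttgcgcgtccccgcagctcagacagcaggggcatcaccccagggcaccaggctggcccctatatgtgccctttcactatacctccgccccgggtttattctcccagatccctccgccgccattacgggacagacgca

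These matches describe the letters of the windows only. The arrays did not measure binding, and the deposited probes are not tied to a particular start site.

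*Sgk2*, a kinase of the same family known mainly from liver, kidney and pancreas, was lower in the corticosterone-treated animals at all 3 hours. Its probe, A_55_P2042923, was well above background in every animal but dim. During the first hour control animals ranged from 139.8 to 264 (median 198) and treated animals from 106.5 to 175 (median 124), with overlap, and the log2 difference was -0.64 (SE 0.11, adjusted p = 5.92e-05). During the fifth hour the ranges were 199 to 352 (median 260.0) and 117 to 192 (median 125), without overlap, and the difference was -0.96 (SE 0.11, adjusted p = 1.65e-08), the largest of the 3 hours. During the ninth hour they were 221 to 289 (median 233) and 125 to 246 (median 174), with a difference of -0.50 (SE 0.11, adjusted p = 0.00134). The treated animal had the higher signal on 1 of 8 arrays during the first hour and on none during the fifth and ninth. No change of the effect between hours passed the test, the estimates being -0.31 (SE 0.16, adjusted p = 1.00) from the first to the fifth hour, 0.14 (SE 0.16, adjusted p = 1.00) from the first to the ninth and 0.45 (SE 0.16, adjusted p = 0.586) from the fifth to the ninth. Corticosterone and a constant dye difference of this probe cannot be told apart in these values. The first-hour value reversed within slide 1 (0.11, 2 arrays), against -0.81 and -0.98 within slides 2 and 3, and the call held without each slide.

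Some markers of oligodendrocytes, the myelin-forming cells, changed in the same comparisons: 2 of 8 were higher and 2 lower during the first hour, 2 and 2 during the fifth, and 2 and 3 during the ninth, beside 17.5%, 18.1% and 13.9% of all probes changed in either direction. The summed intensity of the 8 ranged from 99323 to 115015 (median 103133) in control and 86094 to 103899.5 (median 92818) in treated animals during the first hour, from 93531 to 151651 (median 100459.5) and 80781 to 103480.4 (median 89016) during the fifth, and from 81594 to 123862 (median 99430.3) and 76354 to 100048 (median 85959) during the ninth. The genes did not share a direction: *Mag* was lower at all 3 hours (-0.42 during the fifth), and *Mbp* and *Mobp* were higher at all 3 hours (0.18 and 0.50), each with an adjusted p under 0.05. Outside the rule that names like genes for *Sgk1* and *Tsc22d3* only, the 5 genes whose log2 ratios over the 24 arrays were most like those of *Sgk2* were *Galnt6* (r = 0.755), *C030029H02Rik* (r = 0.751), *5930403L14Rik* (r = 0.726), *Tmem88b* (r = 0.723) and *Pllp* (r = 0.723). *Galnt6* differed between treatments by -0.050, -0.17 and -0.0025 log2 units at the 3 hours. *C030029H02Rik* gave -0.29, -0.53 and -0.40, and *5930403L14Rik* gave -0.24, -0.34 and -0.075. *Tmem88b* gave -0.51, -0.49 and -0.28, and *Pllp*, which encodes the myelin protein plasmolipin, gave -0.39, -0.49 and -0.21. The part of the marker genes in the *Sgk2* difference was not tested.

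*Sgk3*, which carries a phosphoinositide-binding PX domain and resides on endosomes, was slightly higher in treated animals at all 3 hours by 1 of its 3 probes. Its brightest probe, A_55_P1957228, read higher in the treated animal on 8 of 8 arrays at each hour. Control animals of the ninth hour ranged from 4858 to 5595 (median 5268) and treated animals from 6016 to 6751 (median 6442), without overlap, whereas the ranges overlapped at the other 2 hours. It differed between treatments by 0.21 (SE 0.041, adjusted p = 7.30e-05) log2 units in the first hour, 0.22 (SE 0.041, adjusted p = 2.59e-05) in the fifth and 0.28 (SE 0.041, adjusted p = 6.69e-07) in the ninth. The effect did not change detectably between hours, the widest estimate being 0.075 (95% interval -0.039 to 0.19) from the first to the ninth. As for *Sgk2*, corticosterone and a constant dye difference of this probe cannot be told apart in these values. The second probe of the gene, A_55_P2723084, showed differences of -0.089, -0.064 and 0.049, none of which passed the test, and on the same arrays the 2 probes differed by 0.30 (95% interval 0.21 to 0.39), 0.29 (95% interval 0.21 to 0.36) and 0.23 (95% interval 0.18 to 0.29) log2 units at the first, the fifth and the ninth hours (exact sign-flip permutation test over 8 arrays, two-sided, adjusted p = 0.0281 at each hour). Both probes are assigned to the same transcript. The third probe, A_51_P306151, had a mean intensity of 47.2; it was changed during the fifth hour only, by 0.36 (SE 0.096, adjusted p = 0.00955), a call lost without slide 1 (adjusted p = 0.0651) and without slide 3 (0.172). Its first-hour value, 0.27 (SE 0.096, adjusted p = 0.0537), passed under 6 of the alternatives that kept all arrays, among them the slide as a block (0.0489).

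Set against each other on the same arrays, the log2 ratios of *Sgk1*, *Sgk2* and the brightest *Sgk3* probe, A_55_P1957228, differed for every pair at every hour; the other *Sgk3* probes were not set against the paralogs. *Sgk1* exceeded *Sgk2* by 1.36 (95% interval 0.88 to 1.84) during the first hour, 0.95 (95% interval 0.68 to 1.22) during the fifth and 0.38 (95% interval 0.15 to 0.62) during the ninth, with adjusted p-values of 0.0281, 0.0281 and 0.0367 in the exact permutation test. *Sgk1* exceeded this *Sgk3* probe by 0.50 (95% interval 0.27 to 0.73) during the first hour and lay below it afterwards, with *Sgk1* minus *Sgk3* at -0.23 (95% interval -0.39 to -0.071) during the fifth and -0.40 (95% interval -0.48 to -0.33) during the ninth. The order holds for that probe: during the fifth hour *Sgk1*, at -0.0048, lay above the value of A_55_P2723084, -0.064. *Sgk2* lay below A_55_P1957228 at every hour, with *Sgk2* minus *Sgk3* at -0.85 (95% interval -1.31 to -0.40), -1.18 (95% interval -1.46 to -0.90) and -0.78 (95% interval -0.97 to -0.60). With 8 arrays this test cannot give a p below 0.00781, and 54 such tests, 27 between probes of 1 gene and 27 between paralogs, were adjusted together; 7 and 16 of them passed. A dye difference between 2 probes enters each value and cannot be told apart.

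**Figure D3:**
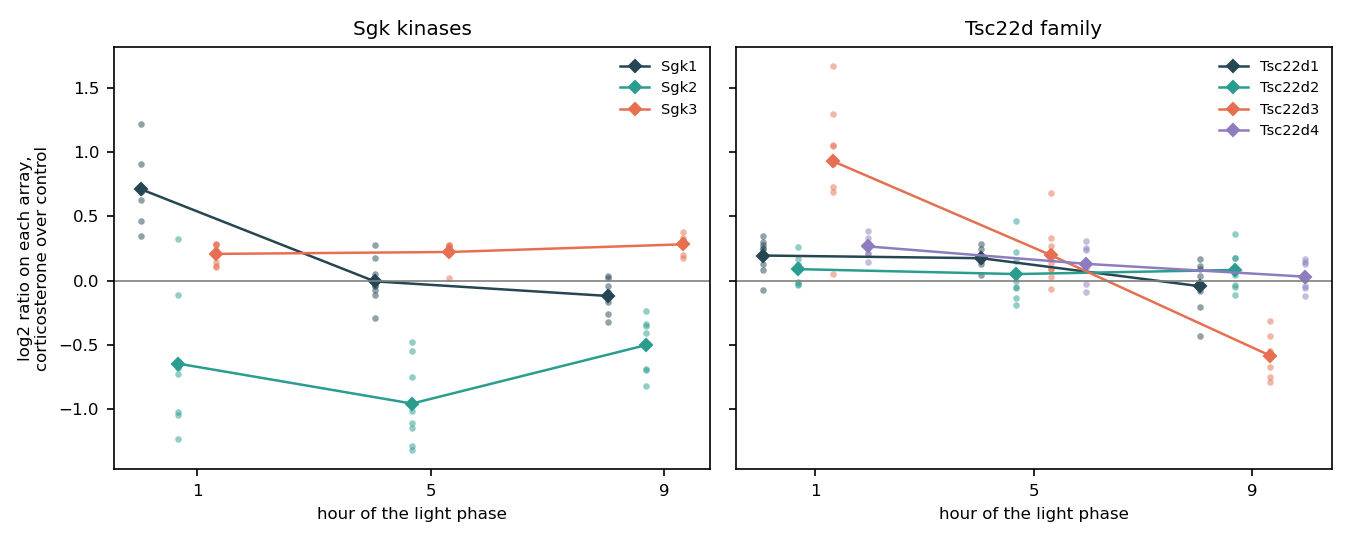
Log2 ratio of corticosterone-treated over control animal on each array, for the brightest probe of each *Sgk* and *Tsc22d* gene, by hour of the light phase. Points are arrays, and diamonds, joined by lines, are means of 8 arrays. The mean of *Sgk1* moves from 0.71 to -0.12 and that of *Tsc22d3* from 0.93 to -0.58 between the first and ninth hours, while *Sgk3* stays between 0.21 and 0.28 and *Tsc22d2* between 0.052 and 0.090.

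*Nedd4l*, the ubiquitin ligase that SGK kinases phosphorylate, was slightly higher in treated animals during the first hour, and this effect fell towards the ninth. Its probe A_55_P2030756 ranged from 6115 to 7531 (median 6655) in control and 7079 to 8525 (median 7859) in treated animals during the first hour, with overlap, and the log2 difference was 0.21 (SE 0.046, adjusted p = 4.28e-04). The difference was 0.12 (SE 0.049, adjusted p = 0.0701) during the fifth hour, where 1 array had no usable spot for this probe (n = 7), and -0.099 (SE 0.046, adjusted p = 0.115) during the ninth. Probe A_66_P133816 gave 0.19 (SE 0.053, adjusted p = 0.00601), 0.17 (SE 0.053, adjusted p = 0.0147) and -0.13 (SE 0.053, adjusted p = 0.0701), and the log2 ratios of the 2 probes differed on the same arrays by at most -0.054 (95% interval -0.28 to 0.17). In the test on log ratios, which pairs the 2 animals of an array, A_66_P133816 was lower during the ninth hour (adjusted p = 0.0404) and its effect fell from the fifth hour to the ninth (adjusted p = 0.0431); both also passed with the authors' log2 ratios (0.0259 and 0.0286). The effect fell by 0.31 (A_55_P2030756, SE 0.065, adjusted p = 0.00218) and 0.32 (A_66_P133816, SE 0.075, adjusted p = 0.00907) on the log2 scale between the first and the ninth hour. These 2 calls were lost without slide 1 (adjusted p = 0.204 and 0.132) and without slide 3 (0.0954 and 0.283), and that of A_66_P133816 also without slide 2 (0.0684), and the A_66_P133816 calls of the first and the fifth hours were lost without slide 2 (0.0940 and 0.171) and without slide 3 (0.0511 and 0.0994).

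*Tsc22d3* was the member with the widest swing: higher in treated animals during the first hour, and lower during the ninth by probe A_55_P1989061. With A_55_P1989061, control animals of the first hour ranged from 3134 to 4301 (median 3609) and treated animals from 4449 to 10914 (median 6889.8), without overlap and with the treated animal higher on 8 of 8 arrays. The arithmetic means were 3659.9 ± 417 and 7197 ± 2103 (SD, n = 8), and the fitted log2 difference was 0.93 (SE 0.099, adjusted p = 5.77e-10), a 1.91-fold difference between geometric means. The single arrays of that hour spread from 0.049 to 1.67 in log2 ratio, so the size varied between pairs of animals more than for *Sgk1*. During the fifth hour the ranges were 2797 to 3913 (median 3195) and 2867 to 4486 (median 3783), with overlap and a difference of 0.20 (SE 0.099, adjusted p = 0.149). During the ninth hour control animals ranged from 3286 to 4636 (median 3700.1) and treated animals from 2217 to 2801 (median 2506), without overlap; the treated animal was lower on 8 of 8 arrays and the difference was -0.58 (SE 0.099, adjusted p = 3.87e-05).

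Probe A_55_P2741276 of *Tsc22d3* gave the same order of hours. Control and treated animals ranged from 863 to 1191 (median 1083) and 1647 to 3268 (median 2376) during the first hour, from 876 to 1275 (median 992) and 979 to 1991 (median 1452) during the fifth, and from 892 to 1388 (median 1159) and 879.8 to 1091 (median 930.1) during the ninth. The groups did not overlap during the first hour and overlapped afterwards. The log2 differences were 1.13 (SE 0.094, adjusted p = 5.34e-13), 0.49 (SE 0.094, adjusted p = 1.47e-04) and -0.25 (SE 0.094, adjusted p = 0.0643), the last of which missed the threshold although the treated animal was lower on 8 of 8 arrays. It passed with the slide as a block (adjusted p = 0.0442) and without slide 2 (0.0323). On the same arrays the log2 ratio of A_55_P1989061 minus that of A_55_P2741276 was -0.20 (95% interval -0.36 to -0.035) during the first hour (adjusted p = 0.0675 in the exact permutation test), -0.29 (95% interval -0.33 to -0.25) during the fifth and -0.34 (95% interval -0.42 to -0.26) during the ninth (adjusted p = 0.0281 for both). The third probe, A_55_P2719913, was not well above background on any array in either channel and gives no fold.

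The change of the *Tsc22d3* effect between hours passed the test for both probes in every pair of hours. From the first to the fifth hour it fell by 0.73 (A_55_P1989061, SE 0.14, adjusted p = 0.00747) and 0.64 (A_55_P2741276, SE 0.13, adjusted p = 0.0233) on the log2 scale. Thereafter, up to the ninth hour, it fell by 0.78 (SE 0.14, adjusted p = 0.00240) and 0.73 (SE 0.13, adjusted p = 0.00296). Over the whole interval it fell by 1.51 (SE 0.14, adjusted p = 1.58e-10) and 1.37 (SE 0.13, adjusted p = 3.99e-10), and within slides 1, 2 and 3 by 1.26, 1.28 and 1.94 for A_55_P1989061. The first step was uneven between slides: within slides 1, 2 and 3 the effect fell by 0.23, 0.78 and 1.02 for A_55_P1989061 and by 0.11, 0.73 and 0.90 for A_55_P2741276. For *Sgk1* the change between the fifth and ninth hours did not pass the test, and whether the 2 genes differ in that step was not tested. In all, 3 of the 20 probes changed their effect from the first to the fifth hour, 6 from the first to the ninth and 2 from the fifth to the ninth, against 0.0389%, 0.829% and 0.0813% of all probes. All went downwards, as 0.0353%, 0.572% and 0.0707% of all probes did, and these 3 comparisons share animals. The calls of the first step were lost without slide 2 (adjusted p = 0.129 and 0.200) and without slide 3 (1 for both). The log2 changes were then -0.70 and -0.59, and -0.56 and -0.48. Those of the second step were lost without slide 1 (0.628 and 0.664) and without slide 3 (0.174 and 0.202). The log2 changes there were -0.71 and -0.64, and -0.74 and -0.69. Of all 56605 probes, 18 and 7 passed in these fits of the first step and 0 and 6 in those of the second. The calls of the whole interval held without each slide. With all arrays kept, the first step was lost for A_55_P2741276 with p-values from intensities without the offset (0.0539) and for A_55_P1989061 with the authors' log2 ratios (0.0515).

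*Tsc22d1*, the founding member of the family and first described as induced by transforming growth factor β, was slightly higher in treated animals during the first and the fifth hours with 1 probe and lower during the ninth with another. Its brightest probe, A_66_P120958, ranged from 31236 to 39658 (median 34653) in control and 37324 to 47051 (median 38662) in treated animals during the first hour, with overlap. The log2 differences were 0.20 (SE 0.058, adjusted p = 0.00970), 0.18 (SE 0.058, adjusted p = 0.0203) and -0.043 (SE 0.058, adjusted p = 0.659). The first-hour call was lost without slide 2 (adjusted p = 0.110) and without slide 3 (0.196), and that of the fifth hour also under these 2 omissions (0.133 and 0.107) and with the software's processed intensities (0.0741). Within slides 1, 2 and 3 the first-hour difference was 0.0062, 0.24 and 0.27. Probe A_55_P2160686, assigned to the same transcript, showed 0.0077 and 0.039 during the first and the fifth hours and -0.48 (SE 0.15, adjusted p = 0.0202) during the ninth, when control animals ranged from 2966 to 6077 (median 5374) and treated animals from 1539 to 5438 (median 3769.9). The treated group of that hour was the most scattered, with the treated animal lower on 7 of 8 arrays, and the call was lost without slide 2 (0.0571) and without slide 3 (0.151). The 2 probes differed on the same arrays by 0.43 (95% interval 0.16 to 0.70) during the ninth hour (adjusted p = 0.0281, exact permutation test), and by 0.19 (95% interval -0.040 to 0.42) and 0.14 (95% interval -0.043 to 0.32) during the first and the fifth, where the difference did not pass. The third probe, A_55_P2930366, with a mean intensity of 44.98, was not changed at any hour (-0.044, -0.072 and 0.080).

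*Tsc22d2* was not changed by any of its 3 probes in any of the 12 comparisons of the separate channel test. The brightest, A_55_P2742855, showed log2 differences of 0.090 (95% interval -0.026 to 0.21), 0.052 (-0.064 to 0.17) and 0.084 (-0.032 to 0.20) at the first, the fifth and the ninth hours. Probe A_66_P131862 showed 0.14, -0.047 and -0.059. Probe A_52_P706621 showed 0.18, 0.12 and 0.17 with wider intervals (first hour, -0.16 to 0.51), and the treated animal was higher on 8 of 8 arrays during the ninth hour. On 1 array of the fifth hour, on slide 3, both animals read low with A_52_P706621, at 61.6 and 58.7 against medians of 245 and 280.3. The log2 SDs in control and treated animals were 0.72 and 0.81 in that hour, against 0.081 and 0.16 in the first. The intervals of this probe at every hour use the spread shared by all hours, with that array included. With limma on log ratios, 1 value per array, A_52_P706621 passed during the first hour (adjusted p = 0.0212) and the ninth (0.0366), and with the authors' log2 ratios it passed at all 3 hours; it also passed during the first hour without slide 3 (0.0368).

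*Tsc22d4*, known from work on hepatic lipid metabolism and insulin signalling, was higher during the first hour by 1 of its 4 probes. With A_51_P284466, control animals of the first hour ranged from 1531 to 1764 (median 1635) and treated animals from 1797 to 2188 (median 1951), without overlap. The log2 difference was 0.27 (SE 0.045, adjusted p = 8.55e-06) in that hour, 0.13 (SE 0.045, adjusted p = 0.0242) during the fifth and 0.032 (SE 0.045, adjusted p = 0.680) during the ninth. The effect fell by 0.24 on the log2 scale between the first and the ninth hour (SE 0.064, adjusted p = 0.0349), a call that was lost without each of the 3 slides (adjusted p between 0.234 and 0.531), with p-values from intensities without the offset (0.0768) and when the software's processed intensities were used (0.0645). During the fifth hour the difference was 0.083 without slide 1 (adjusted p = 0.276) and 0.20 without slide 2 (0.0117), and it also missed the threshold without slide 3 (0.210). Probe A_52_P384392, on the same transcript, lay below 0 at all 3 hours (-0.16, -0.17 and -0.15) without passing the test, although it was lower during the fifth hour once slide 2 was left out (-0.28, adjusted p = 0.0435). On the same arrays A_51_P284466 minus A_52_P384392 was 0.43 (95% interval 0.18 to 0.67) during the first hour, 0.30 (95% interval -0.020 to 0.62) during the fifth and 0.18 (95% interval 0.019 to 0.35) during the ninth, and only the first passed the exact permutation test (adjusted p = 0.0367, 0.146 and 0.0675). Probe A_55_P2727080, assigned to another transcript, showed 0.12, 0.25 and 0.15, and probe A_55_P2096599 showed 0.091, 0.028 and -0.013; none passed.

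Within the *Tsc22d* family *Tsc22d3* stood apart from the other 3 genes during the first and ninth hours by their brightest probes. Its log2 ratio exceeded that of *Tsc22d4* by 0.66 (95% interval 0.26 to 1.06) during the first hour and lay below it during the ninth, at -0.61 (95% interval -0.80 to -0.42) (adjusted p = 0.0367 and 0.0281, exact permutation test). *Tsc22d1* minus *Tsc22d3* was -0.73 (95% interval -1.15 to -0.32) during the first hour and 0.54 (95% interval 0.31 to 0.76) during the ninth (adjusted p = 0.0367 and 0.0367), while A_55_P2160686 of *Tsc22d1*, at -0.48 during the ninth hour, was not set against it. *Tsc22d2* minus *Tsc22d3* was -0.84 (95% interval -1.30 to -0.38) and 0.67 (95% interval 0.55 to 0.78) (adjusted p = 0.0367 and 0.0281). During the fifth hour none of these 3 pairs differed beyond the spread between arrays, with intervals of -0.24 to 0.20 against *Tsc22d1*, -0.45 to 0.16 against *Tsc22d2* and -0.073 to 0.21 against *Tsc22d4*. Among the pairs without *Tsc22d3*, 1 comparison passed, *Tsc22d2* minus *Tsc22d4* at -0.18 (95% interval -0.30 to -0.056) during the first hour (adjusted p = 0.0281).

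Hours were then compared within 1 treatment, where both groups carry the same dye. In control animals none of the 20 probes was changed between any 2 hours by limma's test. At an unadjusted p under 0.05 there were 2 from the first to the fifth hour, 5 from the first to the ninth and 2 from the fifth to the ninth, where 4000, 5679 and 3606 of the 56605 probes lay under the same value. After adjustment 0.0053%, 0.516% and 0.0318% of all probes were changed. With probes under 50 units left out, and without slide 3, A_55_P2727080 of *Tsc22d4* passed from the first to the ninth hour (adjusted p = 0.0385 and 0.0135). In corticosterone-treated animals 3 probes were changed from the first to the fifth hour, 7 from the first to the ninth and 4 from the fifth to the ninth, against 0.537%, 3.93% and 0.668% of all probes. All were lower at the later hour, as were 0.295%, 1.94% and 0.42% of all probes. Some cell type markers also changed in treated animals from the first to the ninth hour. Of 6 endothelial markers 2 were higher and 1 lower, and 2 of 6 microglial and 1 of 4 hippocampal markers were higher. The corticosterone effect rose in 2 and fell in 1 of the endothelial markers, against 0.829% of all probes changed. In control animals 1 endothelial marker was lower. The part of these markers was not tested.

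In these treated animals *Sgk1* fell by 0.84 on the log2 scale between the first and the fifth hour (SE 0.083, adjusted p = 1.36e-09) and differed by 0.0028 (95% interval -0.16 to 0.17) from the fifth to the ninth. In control animals the same 2 steps were -0.12 (-0.29 to 0.039) and 0.12 (-0.046 to 0.28). *Tsc22d3* fell in treated animals by 0.90 in the first step (SE 0.12, adjusted p = 1.15e-06) and by 0.58 in the second (SE 0.12, adjusted p = 0.00419) with A_55_P1989061, and by 0.71 (adjusted p = 4.76e-05) and 0.57 (adjusted p = 0.00264) with A_55_P2741276. The control steps for A_55_P1989061 were -0.17 (-0.40 to 0.059) and 0.20 (-0.029 to 0.43). *Nedd4l* fell from the fifth to the ninth hour by 0.29 (A_55_P2030756, adjusted p = 0.00232, with 7 animals in the fifth hour) and 0.27 (A_66_P133816, adjusted p = 0.0108). The *Tsc22d3* and *Nedd4l* calls of this later step were lost without slide 1 (adjusted p between 0.280 and 0.428), and without slide 3 those of the *Tsc22d3* probes (0.0762 and 0.0730) and of A_66_P133816 (0.255) were lost. That of A_55_P2030756 was lost without slide 2 (0.0812).

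From the first to the ninth hour the treated animals also showed lower *Tsc22d4*, with differences of -0.23 (SE 0.053, adjusted p = 0.00170) with A_51_P284466 and -0.42 (SE 0.12, adjusted p = 0.0211) with A_55_P2727080. With A_55_P2727080 the difference in control animals was -0.45 (SE 0.12, adjusted p = 0.0571), and the value in treated animals was -0.27 without slide 3 (adjusted p = 0.290). Its call was also lost without slide 1 (0.151) and slide 2 (0.0574) and with the software's processed intensities (0.0556), and that of A_51_P284466 without slide 3 (0.0666). *Nedd4l* fell over the same interval by 0.30 (SE 0.054, adjusted p = 6.59e-05; 0.0651 without slide 1) with A_55_P2030756 and 0.40 (SE 0.062, adjusted p = 5.69e-06) with A_66_P133816. For *Sgk2* the differences were 0.44 (SE 0.13, adjusted p = 0.0546) in treated and 0.29 (SE 0.13, adjusted p = 0.396) in control animals, and neither passed the test.

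**Figure D4:**
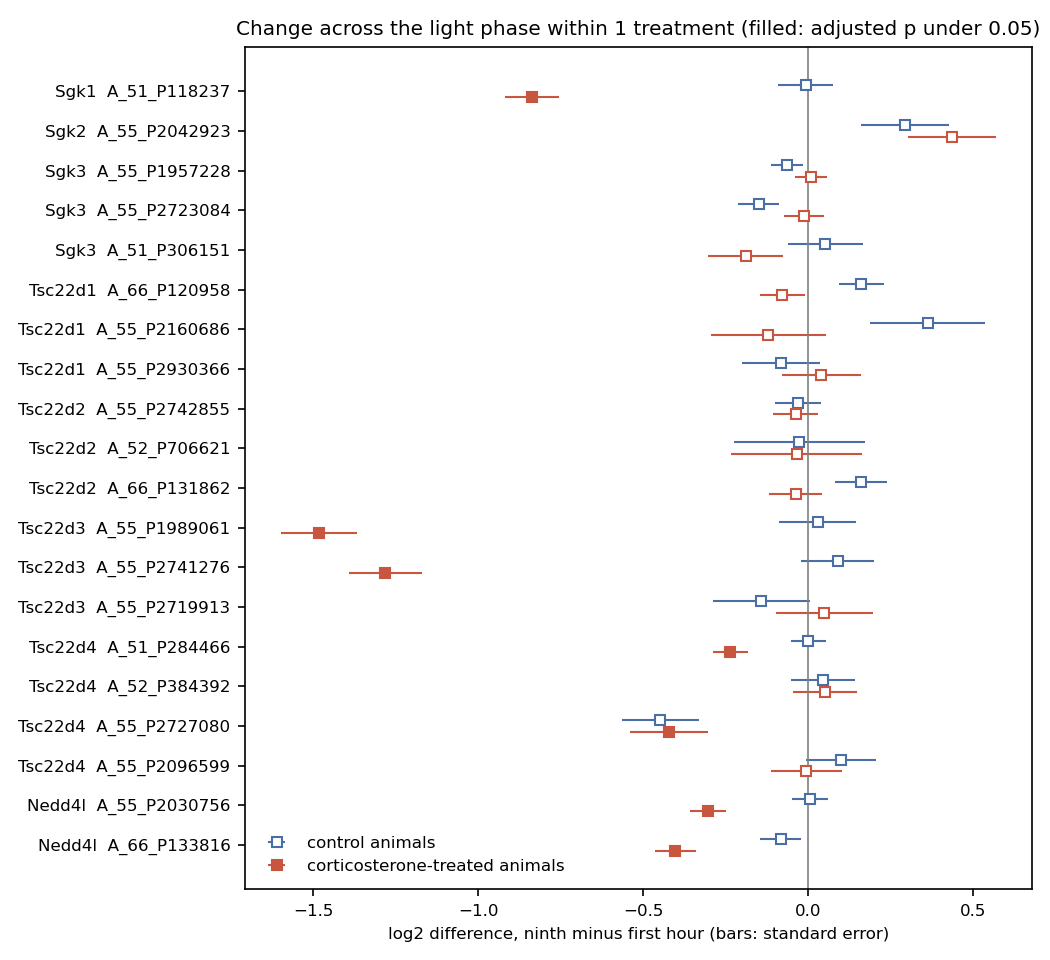
Log2 difference between the ninth and first hours for the 20 probes, in control animals (blue) and corticosterone-treated animals (red), with standard errors; filled squares have an adjusted p under 0.05, n = 8 animals per group. The *Sgk1* probe and 2 *Tsc22d3* probes lie between -1.48 and -0.84 in treated animals, and no probe is changed in control animals.

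Whether *Sgk1* and *Tsc22d3* varied together from animal to animal was examined within each of the 6 groups of 8, on log2 intensities of A_51_P118237 and A_55_P1989061, with no correlation pooled over groups because the groups form separate clusters. In control animals Pearson and Spearman coefficients were r = 0.67 and rho = 0.64 (exact permutation p = 0.0649 and 0.0962, adjusted 0.175 and 0.513) during the first hour, r = -0.64 and rho = -0.55 (exact permutation p = 0.0873 and 0.171, adjusted 0.175 and 0.513) during the fifth and r = 0.70 and rho = 0.38 (exact permutation p = 0.0557 and 0.360, adjusted 0.175 and 0.513) during the ninth. In corticosterone-treated animals they were r = 0.58 and rho = 0.33 (exact permutation p = 0.126 and 0.428, adjusted 0.190 and 0.513), r = 0.090 and rho = 0.26 (exact permutation p = 0.832 and 0.536, adjusted 0.832 and 0.536) and r = -0.32 and rho = -0.40 (exact permutation p = 0.432 and 0.327, adjusted 0.518 and 0.513). The signs differed between groups and none of the 6 passed after adjustment over the groups. Without the 2 animals farthest from the median of *Sgk1*, r was 0.58, -0.15 and -0.16 in control animals and -0.89, 0.38 and 0.086 in treated animals at the 3 hours, so that the sign turned in 3 groups. A slide held only 2 to 4 animals of a group, too few for a value within slides.

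**Figure D5:**
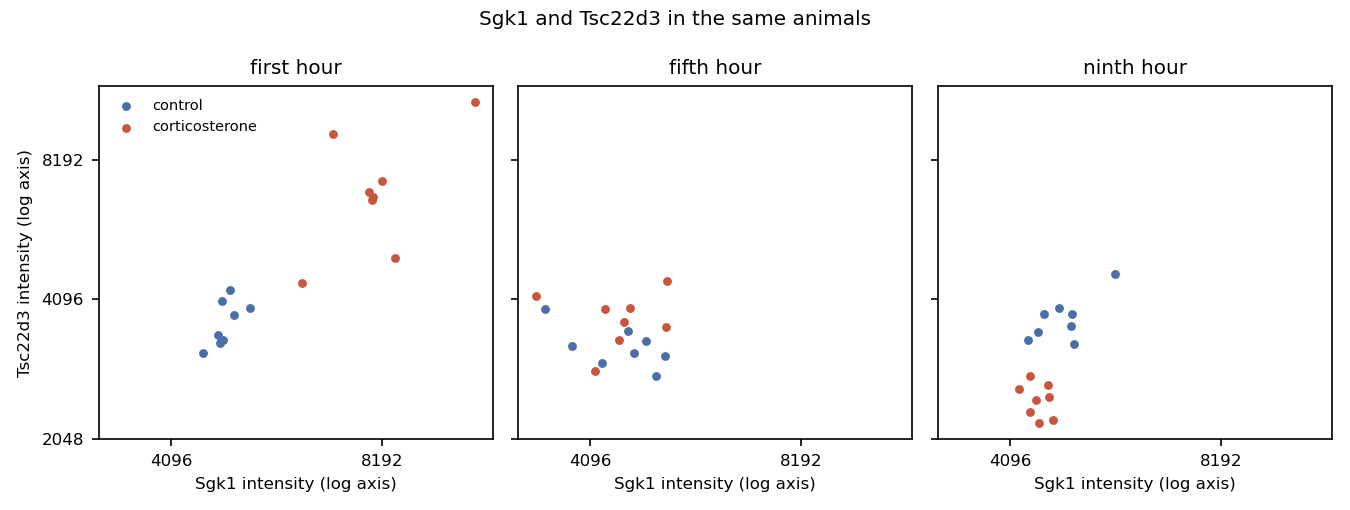
Intensity of *Tsc22d3* (A_55_P1989061) against that of *Sgk1* (A_51_P118237) in the same animals, 1 panel per hour, both axes logarithmic, n = 8 control (blue) and 8 corticosterone-treated (red) animals per panel. The 2 groups separate along both axes during the first hour, and along the *Tsc22d3* axis only during the ninth.

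The genes whose log2 ratios over the 24 arrays were most like those of *Sgk1*, among 15437 genes represented by their brightest probe, were *Pmaip1* (r = 0.943), *Ddit4* (r = 0.940), *Nfkbia* (r = 0.924), *Arrdc2* (r = 0.916) and *Plekhf1* (r = 0.891). *Pmaip1* encodes the pro-apoptotic protein NOXA, *Ddit4* an inhibitor of mTOR complex 1 and *Nfkbia* the NF-kappaB inhibitor IκBα. Their log2 differences were 1.27, 0.57 and 0.76 during the first hour and -0.032, -0.12 and -0.27 during the ninth. The genes most like *Tsc22d3* were *Cdkn1a* (r = 0.958), *Tekt4* (r = 0.952), *Fkbp5* (r = 0.951), *Gjb6* (r = 0.950) and *Slc2a1* (r = 0.947). In that order their log2 differences were 2.06, 1.21, 0.60, 0.73 and 0.92 during the first hour. During the ninth they were 0.17, -0.046, -0.27, -0.076 and -0.075, beside -0.58 for *Tsc22d3* itself (A_55_P1989061). *Cdkn1a* encodes the cell cycle inhibitor p21, *Fkbp5* a cochaperone of the glucocorticoid receptor, *Gjb6* the astrocytic gap junction protein connexin 30 and *Slc2a1* the glucose transporter GLUT1. The 2 lists had no gene in common. These coefficients describe arrays that share hours and slides, and carry no test.

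Other genes of the same pathways were counted by their brightest probe, from lists written with earlier results of these data known. Of 12 glucocorticoid targets that are well known in many tissues, 10 were higher in treated animals and 0 lower during the first hour, 6 and 0 during the fifth, and 1 and 6 during the ninth, with median log2 differences of 0.59, 0.16 and -0.19. *Fkbp5* was higher by 0.60 (adjusted p = 1.81e-07) during the first hour and lower during the ninth at -0.27 (adjusted p = 0.0138), while *Per1*, a clock gene, was higher by 0.27 (adjusted p = 2.22e-05) during the first hour and at -0.034 (adjusted p = 0.658) during the ninth. The effect fell from the first to the ninth hour in 10 of the 12. Of all probes, 8.79%, 8.64% and 6.97% were higher at the 3 hours, 6.93% were lower during the ninth, and the effect fell in 0.572% between the first and the ninth.

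Of 14 genes that act upstream of or beside the SGK kinases, 3 were higher and 1 lower during the first hour, 2 and 2 during the fifth, and 2 and 1 during the ninth. *Prr5* and *Prr5l*, both encoding subunits of mTOR complex 2, moved in opposite directions during the first hour, at 0.36 (adjusted p = 0.00233) and -0.34 (adjusted p = 0.00183). The effect on *Prr5* fell with the hours, by 0.59 on the log2 scale between the first and the ninth (adjusted p = 0.00424), whereas *Prr5l* stayed lower during the ninth at -0.23 (adjusted p = 0.0472). *Pdpk1*, which encodes the activating kinase PDK1, was at 0.15 (adjusted p = 0.0153) during the first hour. Of 15 substrates, channels and binding proteins of SGK and NEDD4L, 3 were higher and 0 lower during the first hour, 3 and 0 during the fifth, and 2 and 0 during the ninth. *Ndrg2* was higher at 0.19 (adjusted p = 0.00821), and *Ndrg1*, whose protein is a standard readout of SGK1 activity, was at 0.17 (adjusted p = 0.143); the arrays did not measure phosphorylation.

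Of 10 ubiquitin ligases and adaptors of the NEDD4 family, 1 were higher and 3 lower during the first hour, 0 and 4 during the fifth, and 1 and 2 during the ninth. *Hecw2* and *Wwp2* were lower at all 3 hours (-0.25 and -0.17 during the first), *Nedd4* itself was at -0.23 (adjusted p = 0.0761), and *Smurf1* was higher during the first hour only, at 0.21 (adjusted p = 5.78e-05). Of 8 genes of the WNK pathway, whose kinases govern chloride transport and whose regulator NRBP1 binds TSC22 domain proteins, 2 were higher and 0 lower during the first hour, 3 and 0 during the fifth, and 1 and 0 during the ninth. *Nrbp1* was higher at all 3 hours (0.26, 0.17 and 0.20). Of 8 genes whose products bind GILZ or act with those that do, 1 were higher and 1 lower during the first hour, 1 and 3 during the fifth, and 1 and 3 during the ninth. *Rela*, the p65 subunit of NF-kappaB, was lower at all 3 hours (-0.27, -0.24 and -0.21) and *Hras* higher (0.25, 0.25 and 0.18). In control animals 1 of these 8 fell from the first to the ninth hour, the immediate early gene *Fos*, by 0.96 on the log2 scale (adjusted p = 0.0459), where 0.516% of all probes changed. The shares in these 5 lists stand beside 17.5%, 18.1% and 13.9% of all probes changed between treatments at the 3 hours, and a difference that keeps its size over the hours may carry a dye difference of the probe.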

How the data were processed

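RNA from the hippocampi of 48 mice was labelled with Cy3 (control) or Cy5 (corticosterone) and hybridised to 24 Agilent mouse gene expression arrays. The deposited intensity files, per the file headers, were extracted by the authors with Agilent Feature Extraction 10.7.3.1 (design build mm9) and hold the median pixel intensity and local background of each spot and channel, with no replicates pooled. The authors' table of log2 ratios per array, whose normalization it does not state, was closest to the log2 ratios after normexp with an offset of 50 and loess (median absolute difference 0.00119), which also gave its direction, corticosterone over control. It served as an alternative only.

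Following the study's methods, the intensities were background corrected with normexp, normalized by loess within and by quantile between arrays, and tested with limma 3.58.1 (R 4.3.3, statmod 1.5.0) on separate channels, with the array as a pair through an intraspot correlation of 0.286 and the 6 groups of hour and treatment in a single fit. As there, p-values came from data with an offset of 50 and log2 differences and intensities from data without it. Control spots (3671) were left out, copies of a probe were averaged, and 34566 of 56605 probes were named through RefSeq gene tables by their transcript identifier. No probe was filtered for low intensity, and a gene outside the 8 was represented by its brightest probe. Log2 ratios of 2 probes on the same arrays were compared by an exact two-sided sign-flip permutation test, adjusted over 54 tests, and genes like *Sgk1* and *Tsc22d3* were sought among those with an intensity of 50 or more. The fit was tested on simulated data first. A confidence interval covers 95%. For limma's log2 differences it uses the spread shared by the 6 groups of the fit. For 2 probes on the same arrays it uses the spread among the arrays of that hour. The number of arrays, 8 per hour (7 for A_55_P2030756 during the fifth), limits the precision. The hours come from the study's design text, where the sample labels number the time points.

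The named genes are all probes of the 8 members. The members, the pathway lists and the cell type markers were chosen with earlier results of these data known. The result of 1 marker gene is not reported here by itself. Alternatives were another offset, no background correction, median centring, Aquantile normalization, the scanner software's processed signals, a filter on dim probes, slide as a block, values within slides, each slide left out, and limma on log ratios or on the authors' table.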

Additional observations from a re-analysis of the deposited data

Results flagged for a closer look

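The animals formed 120 groups, each made of 1 probe, hour and treatment, with 8 animals (7 for A_55_P2030756 during the fifth hour). In 12 of these groups the highest or lowest animal lay apart from the others by Dixon's criterion. Chance alone gives about 1 group in 20. For *Sgk1* (A_51_P118237) this was the highest treated animal of the first hour, at 11128 against a nearest value of 8551, a gap of 0.535 of the range. For *Sgk2* (A_55_P2042923) it was the highest treated animal of the fifth hour, at 192 against a nearest value of 144, a gap of 0.638 of the range. For *Sgk3* (A_55_P1957228) it was the highest treated animal of the first hour, at 7279.9 against a nearest value of 6482, a gap of 0.540 of the range. In *Tsc22d1* 3 groups stood out: the lowest control animal of the ninth hour with A_66_P120958 (31861 against a nearest value of 38067, a gap of 0.577 of the range), the lowest control animal of the ninth hour with A_55_P2160686 (2966 against a nearest value of 4631, a gap of 0.535 of the range), and the highest control animal of the first hour with A_55_P2930366 (82.9 against a nearest value of 49.8, a gap of 0.632 of the range). With A_52_P706621 of *Tsc22d2* the lowest control animal of the fifth hour (61.6 against a nearest value of 236, a gap of 0.813 of the range) and the lowest treated animal of that hour (58.7 against a nearest value of 236, a gap of 0.660 of the range) shared 1 array on slide 3. With A_55_P1989061 of *Tsc22d3* it was the highest control animal of the ninth hour, at 4636 against a nearest value of 3922, a gap of 0.529 of the range. In *Tsc22d4* they were the highest treated animal of the ninth hour with A_51_P284466 (1906 against a nearest value of 1706, a gap of 0.601 of the range), the lowest control animal of the ninth hour with A_52_P384392 (357 against a nearest value of 458, a gap of 0.563 of the range) and the highest treated animal of the first hour with A_55_P2727080 (183 against a nearest value of 132, a gap of 0.712 of the range). No cause was tested, and every animal stayed in the comparisons.

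The corticosterone effect differed between hours for 11 combinations of probe and hours by limma's test of that difference, all towards lower values at the later hour. The log2 change of the effect on *Sgk1* was -0.72 at the fifth and -0.83 at the ninth against the first hour. That on *Tsc22d3* changed by -0.73, -1.51 and -0.78 with A_55_P1989061 and by -0.64, -1.37 and -0.73 with A_55_P2741276 (the first to the fifth, the first to the ninth and the fifth to the ninth hour). At the ninth against the first hour that on *Tsc22d4* changed by -0.24 with A_51_P284466, and that on *Nedd4l* by -0.31 with A_55_P2030756 and -0.32 with A_66_P133816.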

How the results depend on the processing

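Over the 20 probes and 12 comparisons, 1857 values under alternatives that kept all arrays stayed on the same side of the threshold, 6 lost and 21 gained a call, and no called value turned direction. Gains lay in *Sgk2*, in A_51_P306151 of *Sgk3*, A_52_P706621 of *Tsc22d2*, A_55_P2741276 of *Tsc22d3*, A_55_P2727080 of *Tsc22d4* and A_66_P133816 of *Nedd4l*. That of *Sgk2* was in treated animals from the first to the ninth hour, with the processed signals (0.0358), the filter on dim probes (0.0372) and the slide as a block (0.0418), against an adjusted p of 0.0546 in the main analysis. The number of changed probes between treatments ran from 9 to 10, 6 to 8 and 4 to 6 at the 3 hours under these alternatives. Without 1 slide 673 values stayed, 43 lost and 4 gained a call, with fewer arrays in each fit. The number of changed probes between treatments then ran from 7 to 9, 3 to 6 and 3 to 4 at the 3 hours. Of all probes 7.97% to 11.6%, 7.27% to 12.6% and 3.18% to 8.69% were changed in the same fits. The number with a changed effect ran from 1 to 3 for the first to the fifth hour and from 3 to 4 for the first to the ninth. For the fifth to the ninth it ran from 0 to 2. Of all probes 0.0124% to 0.0495%, 0.217% to 0.458% and 0% to 0.0901% had a changed effect in these 3 comparisons. In treated animals 5 to 6 probes were changed from the first to the ninth hour and 0 to 3 from the fifth to the ninth. Of all probes 1.28% to 2.08% and 0.0194% to 0.231% were changed in these comparisons. In control animals 1 probe passed from the first to the ninth hour with the filter on dim probes. Without a slide 0 to 1 passed over that interval, where 0.00883% to 0.362% of all probes did. Of 135 values within slides for the 45 called differences, 134 had the sign of the main value, 25 of them further from it than the SD between arrays of an hour, and the exception was *Sgk2* during the first hour within slide 1, at 0.11. The 23 called comparisons between 2 probes kept their direction without each slide. The cause of these changes was not tested. Between treatments the 2 animals of an array were analysed as a pair, through the intraspot correlation and, as an alternative, through log ratios. Between hours no paired analysis was possible because no label ties an animal of 1 hour to one of another. Dye and treatment cannot be told apart between treatments, and dim probes near background carry the least reliable values.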
